A study of Mus musculus with 9 samples.

Results

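Retinoic acid, the vitamin A derivative that starts the differentiation of spermatogonia, is made and removed inside cells by a small set of enzymes, and 9 genes of that set were followed here across the first 48 h of induced differentiation of mouse spermatogonial stem cells (SSCs). The 9 genes were chosen by function, with earlier results of these data known, out of 46078 gene identifiers in the count files. They were Rdh10, Dhrs3, Aldh1a1, Aldh1a2, Aldh1a3, Cyp26a1, Cyp26b1, Crabp1 and Crabp2. All 9 were found and all 9 passed the filter on low counts in every comparison.

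The cells were EGFP-SSC, a wild-type mouse SSC line that carries enhanced green fluorescent protein. At 0 h the cells were in normal culture on mitomycin C-treated mouse embryonic fibroblasts, in a serum-poor stem cell medium with epidermal growth factor, basic fibroblast growth factor and glial cell line-derived neurotrophic factor. For 24 h and 48 h they were mixed at equal numbers with somatic cells from busulfan-exposed testes of mice 3 to 7 days after birth. The medium was α-MEM with knockout serum replacement, BMP-4/7, retinoic acid at 1 µM, activin A, testosterone, FSH and bovine pituitary extract. EGFP-positive cells were then sorted by flow cytometry, a step that the labels give for these times only. The paper writes of sorting SSCs from several culture stages, without saying whether 0 h was among them. Each time point had 3 libraries, labelled as biological replicates, with no statement of whether they came from separate cultures, so the p-values measure the spread between these libraries. Retinoic acid, the other additions, the change of medium, the somatic cells and time all changed together between 0 h and 24 h, and their effects on a gene cannot be told apart. One cell line was used, and every library of 24 h and 48 h had retinoic acid.

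Cells take up retinol, and RDH10 oxidizes it to retinaldehyde in a reversible step, while DHRS3 reduces retinaldehyde back to retinol. The 3 retinaldehyde dehydrogenases ALDH1A1, ALDH1A2 and ALDH1A3 then make retinoic acid irreversibly, and the cytochrome P450 enzymes CYP26A1 and CYP26B1 hydroxylate it for removal. CRABP1 and CRABP2 carry retinoic acid in the cytoplasm, CRABP2 being known for handing it to nuclear receptors. In the postnatal testis, Sertoli cells are known to express Aldh1a1, spermatocytes to express Aldh1a2, and CYP26 enzymes of the tubule wall to limit the retinoic acid that reaches the germ cells.

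Total counts were 16825251 to 22201892 per library, and the members were covered by 11 to 4022 counts in single libraries. Replicates differed beyond sampling noise in every pair, and the spread was wider where the 0 h libraries took part (biological coefficient of variation 0.22 and 0.228) than between 24 h and 48 h (0.115). A group of 10 germ cell markers led by Dazl and Ddx4 summed to 1966 to 3042 CPM (counts scaled to library size by the trimmed mean of M-values) at 0 h, 2136 to 2380 at 24 h and 2227 to 2503 at 48 h, so germ cell transcripts were abundant at all times, while 2 of the 10 fell at 24 h and 4 at 48 h, with none higher. Markers of testicular somatic cells were higher after co-culture, although the cells had been sorted. The summed CPM of 12 Sertoli cell markers went from 24.1 to 28.4 at 0 h to 80.8 to 137 at 24 h and 123 to 138 at 48 h. Fshr was at 0 in every 0 h library and at 0.0505 and 0.0483 CPM on average at 24 h and 48 h, too low to be tested. Of the 10 Sertoli markers that were tested, 8 rose and 2 fell at 24 h, while at 48 h 8 rose and none fell. The sum of 6 peritubular myoid markers, led by Acta2 and Tagln, was 13.8 to 15.6, then 146 to 208, then 263 to 321, and that of 9 stromal and fibroblast markers, led by Col1a1 and Col1a2, was 266 to 362, then 2121 to 2451, then 2841 to 3136. Against 0 h, 5 of 6 myoid and 7 of 9 stromal markers rose at each later time and none fell. Col1a1 was already at 157 CPM at 0 h. Leydig cell markers summed to 4.49 to 6.80, 24.6 to 38.6 and 25.3 to 32.6, with Hsd3b1 and Insl3 at 0 in every 0 h library, and 2 of 3 tested rose at 24 h and 3 of 3 at 48 h. Endothelial markers summed to 43.3 to 47.3 at 0 h and 12.3 to 18.9 later (2 of 4 fell and 1 rose at each time), and macrophage markers to 16.0 to 18.0 and 7.22 to 12.3 (1 of 4 fell at each time, 2 rose at 24 h and 1 at 48 h). Beside these counts of markers, 11.4% of all genes tested were called higher and 14.2% lower at 24 h against 0 h. At 48 h against 0 h the shares were 13% and 18.5%. In bulk RNA, more cells of a type and more RNA per cell cannot be told apart.

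A majority of the members passed the test at 24 h. Against 0 h, 5 members were called higher (Cyp26a1, Cyp26b1, Aldh1a1, Crabp1 and Dhrs3) and 1 lower (Aldh1a3) by edgeR's quasi-likelihood test at a Benjamini-Hochberg adjusted p of 0.05, beside 25.5% of the 17592 genes tested, of which 11.4% were higher and 14.2% lower. At 48 h against 0 h, 4 members were called higher (the same genes without Dhrs3) and Aldh1a3 was again called lower, beside 31.6% of 17755 genes (13% higher and 18.5% lower). Between 24 h and 48 h, Aldh1a1 was called higher and Cyp26a1, Aldh1a3 and Crabp2 lower, beside 21.3% of 17499 genes (8.61% higher and 12.7% lower). The 24 h and 48 h comparisons used the same 0 h libraries. The median log2 fold change of the 9 members was 0.81, 0.59 and -0.19 in the 3 comparisons, against 0.01, 0.02 and -0.0045 for all genes tested. Between 0 h and 24 h the libraries of the groups did not overlap for any of the 9 members, beside 43.4% of all genes, with 8 members higher (background 21.2%) and 1 lower (22.2%). For 48 h against 0 h this held for 6 members, 5 higher and 1 lower, beside 48.3% of all genes (22.9% and 25.4%). For 48 h against 24 h it held for 5 members, 1 higher and 4 lower, beside 39.6% of all genes (18.6% and 21%).

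**Figure D1:**
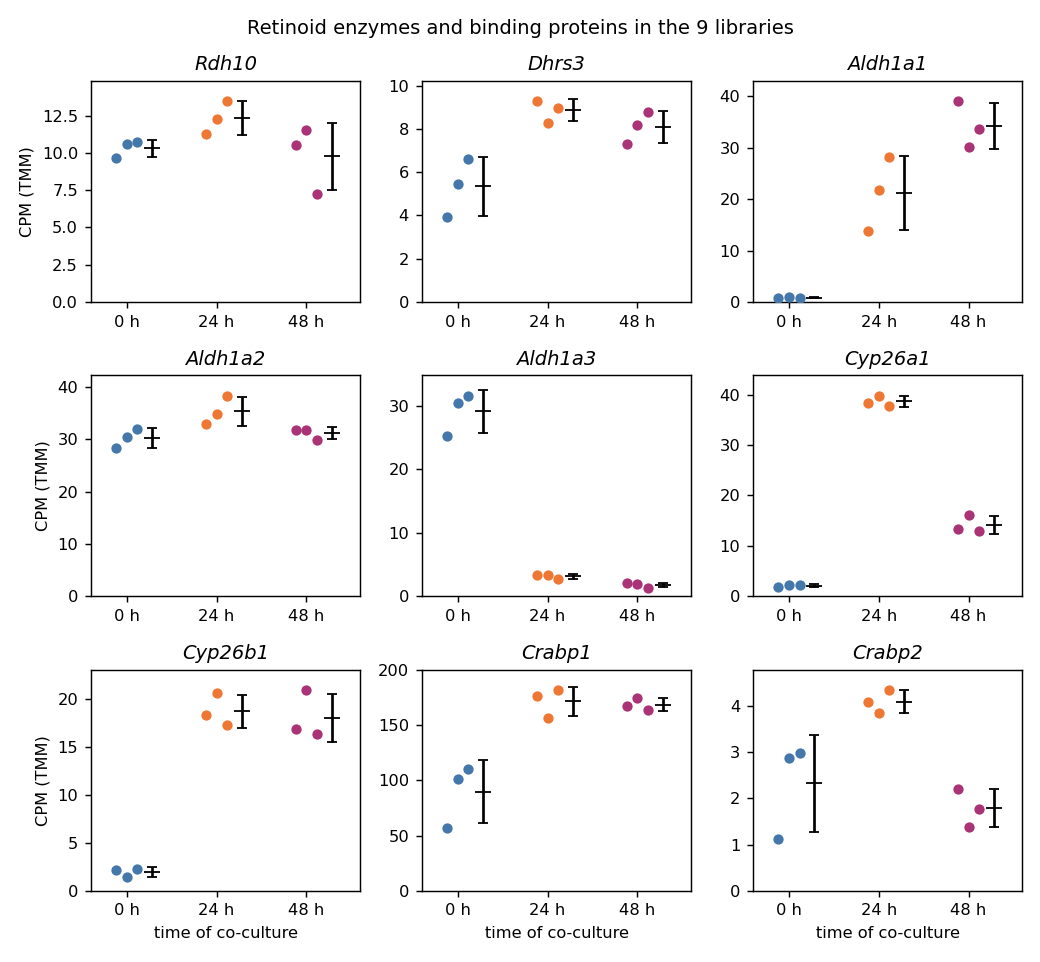
CPM of the 9 genes (vertical axes, each from 0) at 0 h, 24 h and 48 h. Points are the 3 libraries of each time in replicate order, and the bar beside them is their mean ± SD. Cyp26a1 was at 37.8 to 39.8 CPM in the 24 h libraries and at 12.9 to 16.2 in the 48 h libraries, while Aldh1a3 stood at 25.3 to 31.6 only at 0 h.

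The breakdown enzymes Cyp26a1 and Cyp26b1 rose together at 24 h and then parted. Cyp26a1 (ENSMUSG00000024987, GRCm38 chr19:37697798-37701536, plus strand), whose enzyme is known as the main inducible route for clearing retinoic acid, was at 1.81, 2.28 and 2.29 CPM in the 0 h libraries, at 38.3, 39.8 and 37.8 CPM at 24 h and at 13.4, 16.2 and 12.9 CPM at 48 h. The 3 groups were fully separate, with the 24 h libraries at the top and the 48 h libraries between. It rose 18.2-fold at 24 h (log2 fold change 4.19, standard error (SE) 0.15, edgeR adjusted p = 8.72e-06). At 48 h it was 6.63-fold above 0 h (log2 2.73, SE 0.19, edgeR adjusted p = 7.84e-05). From 24 h to 48 h it fell 2.74-fold (log2 -1.46, SE 0.10, edgeR adjusted p = 7.19e-05). Myoid and stromal marker sums were higher at 48 h than at 24 h in every library, and the Sertoli sums overlapped. Between these times 5 of 6 myoid, 5 of 9 stromal and 3 of 10 Sertoli markers were called higher, beside 8.61% of all genes. Called lower were 0 myoid, 1 stromal (Pdgfra, 44.7 to 36.2 CPM) and 1 Sertoli marker (Amh, 5.80 to 0.829 CPM), beside 12.7% of all genes. Of 4 endothelial markers, 2 were lower and 0 higher, and of 4 macrophage markers 1 was higher and 0 lower. None of 3 Leydig markers was called, and the Leydig sums overlapped (24.6 to 38.6 CPM at 24 h and 25.3 to 32.6 at 48 h). The part of somatic cells in the fall of Cyp26a1 was not tested.

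Cyp26b1 (ENSMUSG00000063415, chr6:84571414-84593908, minus strand), whose enzyme is known for keeping male germ cells of the fetal testis out of meiosis, was at 2.18, 1.39 and 2.29 CPM at 0 h, at 18.3, 20.7 and 17.3 CPM at 24 h and at 16.9, 21.0 and 16.4 CPM at 48 h. All later libraries were above all 0 h libraries, and those of 24 h and 48 h overlapped. Its rise was 9.69-fold at 24 h (log2 3.28, SE 0.23, edgeR adjusted p = 8.45e-05) and 9.27-fold at 48 h (log2 3.21, SE 0.24, edgeR adjusted p = 0.000102). Between 24 h and 48 h the difference was -0.06 on the log2 scale (SE 0.12, edgeR adjusted p = 0.75). Per length, as FPKM (counts scaled for library size and exon length), the sum of both genes went from 1.44 ± 0.134 (SD, n = 3) to 23.0 ± 0.842 and then 10.5 ± 1.37, and Cyp26a1 made up 74.6% ± 6.40, 84.8% ± 0.834 and 67.9% ± 0.284 of it. The part of somatic cells in the rise of Cyp26a1 and Cyp26b1 at 24 h was not tested.

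The 2 genes differed in the sequence just upstream of their starts. Receptors for retinoic acid bind direct repeats of a hexamer. Promoters in the RefSeq table (GRCm38.p6, 250 bases before to 50 after the start), apart from those of 1 chromosome, were searched on both strands. The search was for pairs of hexamers set 1, 2 or 5 bases apart. Each hexamer could be AGGTCA, the common form, or 1 of 3 variants, namely AGTTCA for the first, GGGTCA for another and GGTTCA for the last. The table held 9 promoters of 6 members. Of these promoters, 1 held such a repeat, that of Cyp26a1, with a spacing of 5 bases, which 32 of all 32851 promoters (0.0974%) held. A repeat with any of the 3 spacings was in 193 promoters (0.588%). The repeat lay at chr19:37697776-37697792, from 32 to 16 bases before the RefSeq start, and read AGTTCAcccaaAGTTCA on the strand opposite to the gene. The lines below give the stretches upstream of the annotated gene for both Cyp26 genes and for Aldh1a1, the member with the largest rise (the first of its 2 promoters in the table; the other, at chr19:20601718-20601967, held no repeat), each on its gene's strand and with the repeat in capitals. They are chr19:37697558-37697797 (plus strand), chr6:84593909-84594060 (minus strand) and chr19:20492333-20492582 (plus strand), with a GC content of 62.1%, 65.1% and 42.8%.
Cyp26a1: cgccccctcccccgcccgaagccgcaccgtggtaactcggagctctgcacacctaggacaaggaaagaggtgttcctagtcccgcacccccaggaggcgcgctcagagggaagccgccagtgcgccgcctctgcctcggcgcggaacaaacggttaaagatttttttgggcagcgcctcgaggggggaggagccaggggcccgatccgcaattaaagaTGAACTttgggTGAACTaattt
Cyp26b1: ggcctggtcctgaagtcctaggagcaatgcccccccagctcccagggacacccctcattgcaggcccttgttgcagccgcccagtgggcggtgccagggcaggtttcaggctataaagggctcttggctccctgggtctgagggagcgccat
Aldh1a1: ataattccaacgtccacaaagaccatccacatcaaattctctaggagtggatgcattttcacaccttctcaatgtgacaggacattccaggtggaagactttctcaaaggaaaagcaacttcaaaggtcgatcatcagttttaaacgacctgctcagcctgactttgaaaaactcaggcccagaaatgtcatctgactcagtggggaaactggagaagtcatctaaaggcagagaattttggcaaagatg

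A match is a description of the letters and not a bound site, and nothing follows from the absence of one in these windows. The counts are per gene and do not tell which start of Aldh1a1 was used. Outside the members, the promoter of Rarb, a retinoic acid receptor gene, held a repeat of the same spacing, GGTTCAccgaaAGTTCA, at chr14:16575513-16575529, from 53 to 37 bases before its start, while none was found in the windows of Cyp26c1, Stra8, Rec8 and Nr2f2. Cyp26c1, the third gene of the family, lies 4399 bases upstream of Cyp26a1 on the same strand, and its own values were chosen for description after they were seen. It was at 3.97 CPM on average at 24 h and 2.67 at 48 h, and its log2 fold changes against 0 h were 2.30 (SE 0.29, edgeR adjusted p = 0.00136) and 1.71 (SE 0.35, edgeR adjusted p = 0.00927).

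**Figure D2:**
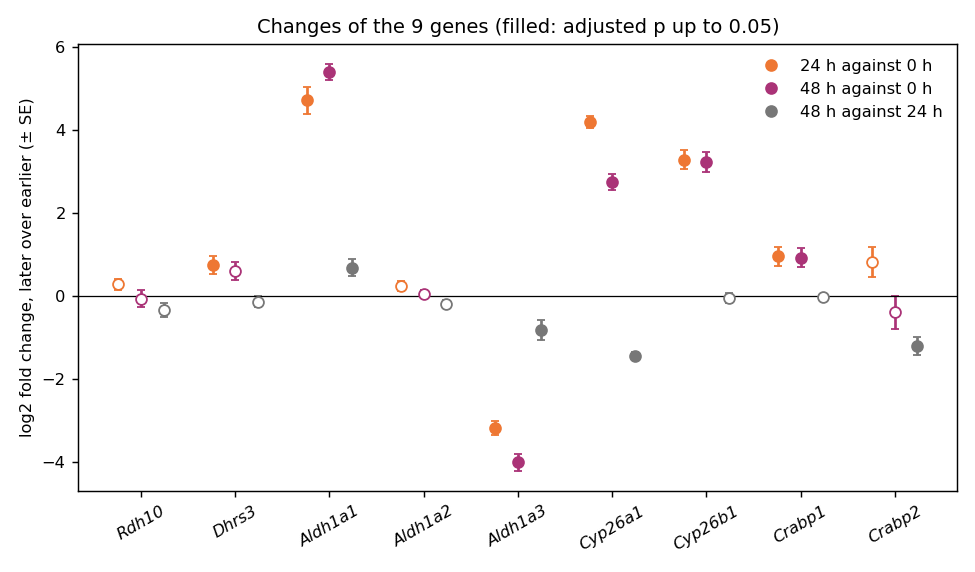
Log2 fold change of each of the 9 genes, later over earlier time, with its standard error (vertical axis), for 24 h against 0 h, 48 h against 0 h and 48 h against 24 h. Filled points passed an adjusted p of 0.05 in edgeR and open points did not; Aldh1a1 (4.71 and 5.38) and Aldh1a3 (-3.18 and -4.01) lie at the 2 ends.

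Of the 3 retinaldehyde dehydrogenases, one rose, one fell and Aldh1a2 did not pass the test. Aldh1a3 (ENSMUSG00000015134, chr7:66390890-66427517, minus strand) was at 25.3, 30.4 and 31.6 CPM at 0 h, at 3.39, 3.42 and 2.74 CPM at 24 h and at 2.04, 2.00 and 1.37 CPM at 48 h. Every library of a later time was below every library of an earlier one. It fell 9.05-fold at 24 h (log2 -3.18, SE 0.17, edgeR adjusted p = 3.01e-05) and was 16.1-fold below 0 h at 48 h (log2 -4.01, SE 0.20, edgeR adjusted p = 1.97e-05). The further step from 24 h to 48 h was -0.83 on the log2 scale (SE 0.23, edgeR adjusted p = 0.0349), and that call was lost with DESeq2 in place of edgeR (adjusted p = 0.0529).

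Aldh1a1 (ENSMUSG00000053279, chr19:20492715-20643465, plus strand) moved the other way. It was at 0.686, 0.943 and 0.797 CPM at 0 h, from 11 to 19 counts per library, at 13.8, 21.8 and 28.2 CPM at 24 h and at 39.1, 30.2 and 33.6 CPM at 48 h. Its 24 h libraries spanned more than those of any other member at that time relative to their mean (21.3 ± 7.23, SD, n = 3), and all 48 h libraries were above them. The rise was 26.1-fold at 24 h (log2 4.71, SE 0.32, edgeR adjusted p = 8.13e-05) and 41.7-fold at 48 h (log2 5.38, SE 0.19, edgeR adjusted p = 6.39e-06). From 24 h to 48 h the log2 fold change was 0.68 (SE 0.21, edgeR adjusted p = 0.049), a call that was lost when all 9 libraries shared 1 fit (adjusted p = 0.115) and without 24 h replicate 1 (log2 0.44, adjusted p = 0.0822).

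The Sertoli sum had the library order of Aldh1a1, itself known from Sertoli cells, at both later times, and other somatic sums at 1 time or at none. With 3 libraries per time such an order can also arise by chance, and this was not tested. The endothelial and macrophage sums had it at neither time. In the 24 h libraries, where Aldh1a1 was 13.8, 21.8 and 28.2 CPM, the Sertoli sum was 80.8, 100.3 and 137 CPM and the myoid sum 146, 172 and 208 CPM, in the same order. The stromal sum (2121, 2451 and 2227 CPM) and the Leydig sum (24.6, 38.6 and 38.3 CPM) were highest in replicate 2 instead. In the 48 h libraries Aldh1a1 (39.1, 30.2 and 33.6 CPM) was highest in replicate 1 and lowest in replicate 2. The Sertoli sum (138, 123 and 136 CPM) and the Leydig sum (32.6, 25.3 and 29.4 CPM) had the same order. The myoid sum (318, 263 and 321 CPM) was also lowest in replicate 2 but highest in replicate 3. The stromal sum (3136, 2862 and 2841 CPM) was lowest in replicate 3. Among genes above 5 CPM in a group, those whose pattern over the 9 libraries was most like that of Aldh1a1 were Ccdc80, Igfbp7 and Hsd3b1, the last of them a steroidogenic enzyme gene on the Leydig list. Their mean-centred log2 CPM differed from that of Aldh1a1 by a root mean square of 0.34, 0.40 and 0.41, the smallest of 12612 genes compared. Ccdc80 (0.220 CPM at 0 h), Igfbp7 (4.94 CPM) and Hsd3b1 (0 CPM) were all below the 5 CPM limit at 0 h. They passed it only through times when Aldh1a1 was high, Hsd3b1 through 48 h alone (4.29 CPM at 24 h and 5.25 at 48 h). At 0 h the prior count of 2 set much of the value of Ccdc80 and Hsd3b1, so their likeness at 0 h is weakly measured. The part of somatic RNA in the rise of Aldh1a1 was not tested.

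**Figure D3:**
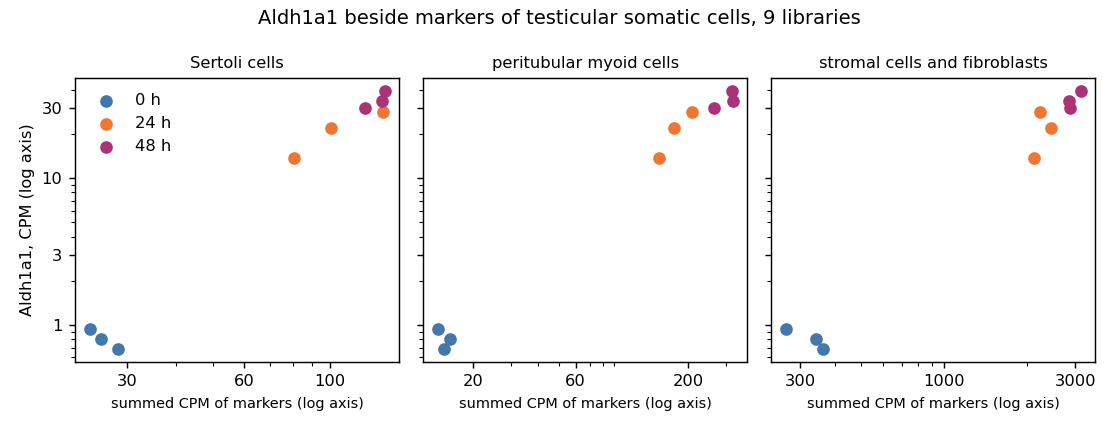
Aldh1a1 in CPM (vertical log axis) against the summed CPM of Sertoli, peritubular myoid and stromal markers (horizontal log axes), one point per library, coloured by time. The 0 h libraries (0.686 to 0.943 CPM of Aldh1a1) lie apart at the lower left, and within 24 h the Sertoli and myoid sums, but not the stromal sum (2121, 2451 and 2227 CPM), follow the library order of Aldh1a1.

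Aldh1a2 (ENSMUSG00000013584, chr9:71215789-71296243, plus strand) was the steadiest of the 3. Its levels were 28.3, 30.5 and 32.0 CPM at 0 h, 33.0, 34.8 and 38.4 CPM at 24 h and 31.9, 31.9 and 29.9 CPM at 48 h. The 24 h libraries were above all others, by little. The log2 fold change was 0.24 at 24 h (SE 0.11, edgeR adjusted p = 0.175), 0.04 at 48 h (SE 0.11, edgeR adjusted p = 0.799) and -0.19 from 24 h to 48 h (SE 0.08, edgeR adjusted p = 0.113).

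Added together per length, the 3 dehydrogenase genes shifted in makeup more than in their sum. The sum was 19.9 ± 1.56 FPKM at 0 h, 20.6 ± 2.59 at 24 h and 21.1 ± 1.15 at 48 h (each SD over 3 libraries), with ranges that overlapped. Aldh1a3 took 31.7% ± 1.27 of it at 0 h, 3.41% ± 0.777 at 24 h and 1.84% ± 0.339 at 48 h. Aldh1a1 took 0.824% ± 0.103, 20.5% ± 4.65 and 32.8% ± 2.91, and Aldh1a2 the rest, 67.5%, 76.1% and 65.4%. The level sum depended on the length used: Aldh1a1 has 4937 bases over the union of its exons and 2358 in its longest transcript. With longest transcripts the sum was 22.2 ± 1.82, 25.6 ± 4.17 and 28.8 ± 2.08 FPKM, and Aldh1a1 took 50.3% ± 3.33 of it at 48 h. By that length all 48 h libraries (27.5 to 31.2 FPKM) were above all 0 h libraries (20.2 to 23.7). The part of somatic RNA in these sums and shares was not tested.

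**Figure D4:**
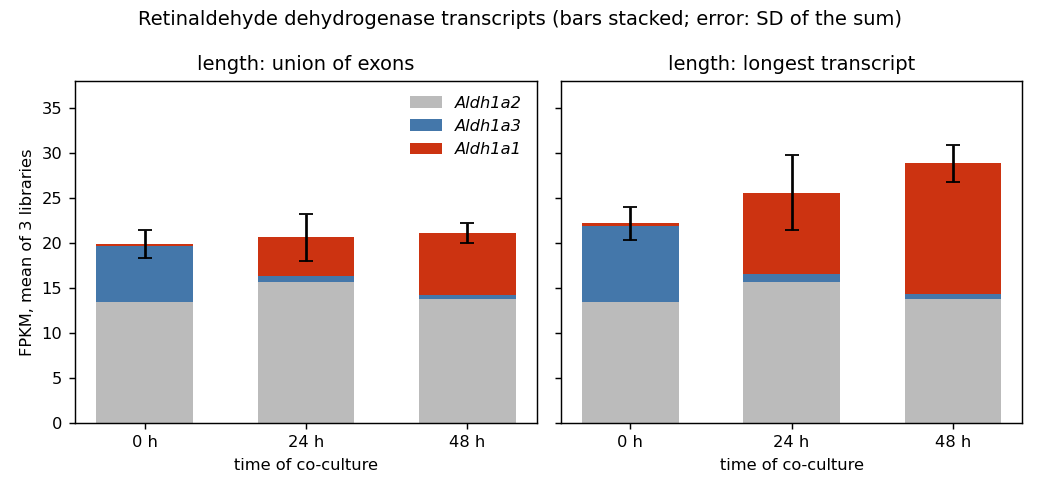
Mean FPKM of Aldh1a2, Aldh1a3 and Aldh1a1 stacked at each time (vertical axis from 0), with the SD of the sum over 3 libraries, for 2 definitions of gene length. By the union of exons the mean sum stays between 19.9 and 21.1 FPKM, and by the longest transcript it goes from 22.2 to 28.8. The share of Aldh1a3 is lower and that of Aldh1a1 higher at the later times in both.

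Dhrs3 and Rdh10 interconvert retinol and retinaldehyde. Dhrs3 (ENSMUSG00000066026, chr4:144892827-144928209, plus strand), known as a gene that retinoic acid induces, was at 3.93, 5.46 and 6.63 CPM at 0 h, at 9.29, 8.29 and 8.99 CPM at 24 h and at 7.28, 8.17 and 8.76 CPM at 48 h. Both later groups lay above the 0 h libraries and overlapped each other. It was 1.67-fold higher at 24 h (log2 0.74, SE 0.22, edgeR adjusted p = 0.0421), a call near the threshold that was lost with DESeq2 size factors (0.0502) and with no expression filter (0.0536). At 48 h it was not called (log2 0.59, SE 0.22, edgeR adjusted p = 0.0831), but it was called with library size alone, with all 9 libraries in 1 fit and with offsets for GC content and length (adjusted p = 0.0462, 0.0353 and 0.0203). Without 0 h replicate 3 it was also called at 48 h (adjusted p = 0.0249). From 24 h to 48 h its log2 fold change was -0.14 (SE 0.13, edgeR adjusted p = 0.449).

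Rdh10 (ENSMUSG00000025921, chr1:16105774-16133734, plus strand), whose enzyme makes retinaldehyde from retinol, was at 9.67, 10.6 and 10.7 CPM at 0 h, at 11.3, 12.3 and 13.5 CPM at 24 h and at 10.5, 11.6 and 7.24 CPM at 48 h. Replicate 3 of 48 h was the lowest of all 9 libraries. None of its changes passed the test: 0.27 at 24 h (SE 0.14, edgeR adjusted p = 0.203), -0.08 at 48 h (SE 0.20, edgeR adjusted p = 0.814) and -0.34 from 24 h to 48 h (SE 0.17, edgeR adjusted p = 0.175), all as log2 fold changes.

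The carriers differed from each other in level by a wide margin. Crabp1 (ENSMUSG00000032291, chr9:54764748-54773110, plus strand) was at 57.0, 101 and 110 CPM at 0 h, at 176, 156 and 182 CPM at 24 h and at 167, 175 and 163 CPM at 48 h. All later libraries were above all 0 h libraries, among which replicate 1 was low. It was 1.93-fold higher at 24 h (log2 0.95, SE 0.23, edgeR adjusted p = 0.0217) and 1.88-fold at 48 h (log2 0.91, SE 0.23, edgeR adjusted p = 0.0218), with no call between 24 h and 48 h (log2 -0.04, SE 0.07, edgeR adjusted p = 0.744). Leaving out 0 h replicate 2 or any 1 of the later libraries ended the call, with adjusted p of 0.0564 to 0.0809 at 24 h and 0.0523 to 0.076 at 48 h; leaving out 0 h replicate 1 or 3 did not.

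Crabp2 (ENSMUSG00000004885, chr3:87948666-87953376, plus strand) was at 1.12, 2.88 and 2.99 CPM at 0 h, at 4.08, 3.85 and 4.35 CPM at 24 h and at 2.20, 1.39 and 1.77 CPM at 48 h. The 24 h libraries stood above all others, and the 48 h libraries lay inside the 0 h range. It was lower at 48 h than at 24 h (2.32-fold, log2 -1.21, SE 0.22, edgeR adjusted p = 0.00544), which was lost with all 9 libraries in 1 fit (adjusted p = 0.0728). Against 0 h it was not called, at 0.81 for 24 h (SE 0.35, edgeR adjusted p = 0.141) and -0.39 for 48 h (SE 0.40, edgeR adjusted p = 0.505). Crabp1 made up 98.5% ± 0.276 of the 2 genes' summed FPKM at 0 h, 98.6% ± 0.0447 at 24 h and 99.4% ± 0.156 at 48 h. For Crabp1, Crabp2 and Dhrs3 alike, 0 h replicate 1 was the lowest of the 9 libraries; it also lay at an end of the second principal component of all genes, with 0 h replicate 3 at the other.

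Ranked per length, Crabp1 led at every time, with 112 ± 35.7 FPKM at 0 h, 214 ± 16.7 at 24 h and 210 ± 7.29 at 48 h. At 0 h there followed Aldh1a2 (13.4 ± 0.828), Aldh1a3 (6.31 ± 0.727), Rdh10 (2.48 ± 0.137), Dhrs3 (1.82 ± 0.462), Crabp2 (1.76 ± 0.792), Cyp26a1 (1.07 ± 0.140), Cyp26b1 (0.365 ± 0.0921) and Aldh1a1 (0.164 ± 0.0261). Dhrs3 and Crabp2 overlapped over libraries, as did Crabp2 and Cyp26a1. At 24 h Cyp26a1 was second (19.5 ± 0.519), above Aldh1a2 (15.6 ± 1.22) in all libraries. Aldh1a1 (4.31 ± 1.47), Cyp26b1 (3.51 ± 0.322), Crabp2 (3.10 ± 0.188), Dhrs3 (3.03 ± 0.174) and Rdh10 (2.97 ± 0.269) came next, each overlapping its neighbour, and Aldh1a3 (0.689 ± 0.0839) was last. At 48 h Aldh1a2 (13.8 ± 0.509) was second again, and Cyp26a1 (7.14 ± 0.905) and Aldh1a1 (6.94 ± 0.912) overlapped. Cyp26b1 (3.38 ± 0.469), Dhrs3 (2.76 ± 0.254), Rdh10 (2.35 ± 0.542) and Crabp2 (1.35 ± 0.306) followed, of which Dhrs3 and Rdh10 overlapped, and Aldh1a3 (0.391 ± 0.0819) was last. With longest transcripts Aldh1a1 reached 14.5 ± 1.91 FPKM at 48 h, beside 13.8 ± 0.509 for Aldh1a2.

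The nearest genes by pattern were also sought for 2 more members. Nearest to Aldh1a3, the member with the largest fall, were Phf19, Tdrd6, a gene of the germline, and Sp5, with a root mean square difference of 0.17, 0.18 and 0.20 in mean-centred log2 CPM over the 9 libraries. Cyp26a1 was added to this search after its values were seen, and its nearest genes were Ltbp4, Col4a4 and Hcn4 (0.20, 0.28 and 0.31). Phf19 and Tdrd6 passed the 5 CPM limit only through 0 h (24.1 and 20.6 CPM), where Aldh1a3 was also high. Col4a4 passed it only through 24 h (5.98 CPM), where Cyp26a1 was highest. Ltbp4 and Hcn4 (1.46 and 1.88 CPM at 0 h) passed it only through 24 h and 48 h, when Cyp26a1 was raised. Some genes are always the nearest, and whether these are closer than usual was not tested.

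Other genes of retinoid handling moved in both directions. Of 36 such genes found, 22 were tested at 24 h, with 5 higher and 3 lower, beside 11.4% and 14.2% of all genes. At 48 h 23 were tested, with 6 higher and 5 lower, beside 13% and 18.5%. From 24 h to 48 h 1 of 22 was higher and 4 lower, beside 8.61% and 12.7%. The median log2 fold changes were 0.37, 0.20 and -0.15, beside 0.01, 0.02 and -0.0045 for all genes tested. Adh1, a retinol-oxidizing alcohol dehydrogenase, rose at 24 h (log2 4.16, SE 0.40, edgeR adjusted p = 0.000359) to 6.76 CPM and was at 6.47 CPM at 48 h. Rdh11, a retinaldehyde reductase, fell at both times (log2 -1.14, SE 0.12, and -1.03, SE 0.12, edgeR adjusted p = 0.000508 and 0.000841). Between 24 h and 48 h, Rdh13 (log2 -0.42, SE 0.06), Dgat1, which can esterify retinol (-0.35, SE 0.07), and Fabp5, a carrier that can bind retinoic acid (-0.58, SE 0.13), also fell. Of 8 alternative settings 6 kept the call of Dgat1 and 7 that of Fabp5. Rdh13 had been higher at 24 h than at 0 h (log2 0.39, SE 0.11, edgeR adjusted p = 0.0375) and did not pass the test at 48 h against 0 h (log2 -0.04, SE 0.11). Its call at 24 h was kept by 5 of 8 alternative settings and 2 of 6 fits with a library left out.

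Among the 6 nuclear receptor genes, 1 rose and 1 fell at 24 h, beside 11.4% and 14.2% of all genes. Against 0 h, 2 rose and 1 fell at 48 h, beside 13% and 18.5%. From 24 h to 48 h none rose and 2 fell, beside 8.61% and 12.7%. One of these 2 was Rxra, whose call was not kept by other settings. Rarb, itself a target of retinoic acid, rose at 24 h (log2 5.72, SE 0.60, edgeR adjusted p = 0.00053) to 5.82 CPM and was at 2.05 CPM at 48 h (log2 -1.53 against 24 h, SE 0.25, edgeR adjusted p = 0.00354). Of its longest transcript, 57.7% has the same sequence as Top2b, which overlaps it on the other strand, and since no strand setting of the counting was given in the sources used here, reads of the 2 cannot be told apart. Rxrg, coding for a retinoid X receptor, fell 18.8-fold at 24 h (log2 -4.23, SE 0.32, edgeR adjusted p = 0.000133) and was 25.8-fold below 0 h at 48 h (log2 -4.69, SE 0.24). Rara was called at 48 h against 0 h (log2 0.45, SE 0.14, edgeR adjusted p = 0.0399), a call that 6 of 8 alternative settings and 1 of 6 fits with a library left out (0 h replicate 3) kept, with adjusted p up to 0.142. Rxra, the most abundant of the 6, passed as lower at 48 h than 24 h (log2 -0.21, SE 0.06, edgeR adjusted p = 0.036), which 0 of 8 alternative settings kept (log2 -0.0089 and adjusted p = 0.927 with GC and length offsets) and 1 of 6 fits with a library left out (48 h replicate 2).

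A list of 15 genes known to respond to retinoic acid, some of which are also on the retinoid handling or receptor list, moved mostly upward. At 24 h 9 of 12 tested were higher and 1 lower (median log2 fold change 2.29), beside 11.4% and 14.2% of all genes (median 0.01). At 48 h 13 of 14 were higher and 1 lower (2.07), beside 13% and 18.5% of all genes (0.02). From 24 h to 48 h 2 of 14 were higher and 6 lower (0.08), beside 8.61% and 12.7% of all genes (-0.0045). Rec8, a meiotic cohesin gene, rose to 110.8 CPM at 24 h (log2 2.31, SE 0.12) and was at 63.6 CPM at 48 h (log2 -0.81 against 24 h, SE 0.07). Stra8, the retinoic acid-induced gatekeeper of meiosis, rose most of the list at 24 h (log2 8.48, SE 0.21), was still far above 0 h at 48 h (log2 7.56, SE 0.21) and was lower at 48 h than at 24 h (log2 -0.92, SE 0.07), as were Cyp26a1 and Rarb. Tgm2, a transglutaminase, passed as lower at 48 h than 24 h (log2 -0.36, SE 0.11, edgeR adjusted p = 0.0462), but 3 of 8 alternative settings and 1 of 6 fits with a library left out (48 h replicate 2) kept that call (log2 -0.14 and adjusted p = 0.422 with the offsets). It shares exon sequence with genes on the other strand. Nr2f2, an orphan receptor gene often used as a marker of stromal cells, rose at 24 h and at 48 h (log2 4.08 at 48 h), and Pdgfa, a growth factor gene, fell at both times (log2 -1.55 and -2.14), with 26.1% of its exon bases overlapped by 6330403L08Rik on the other strand.

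**Figure D5:**
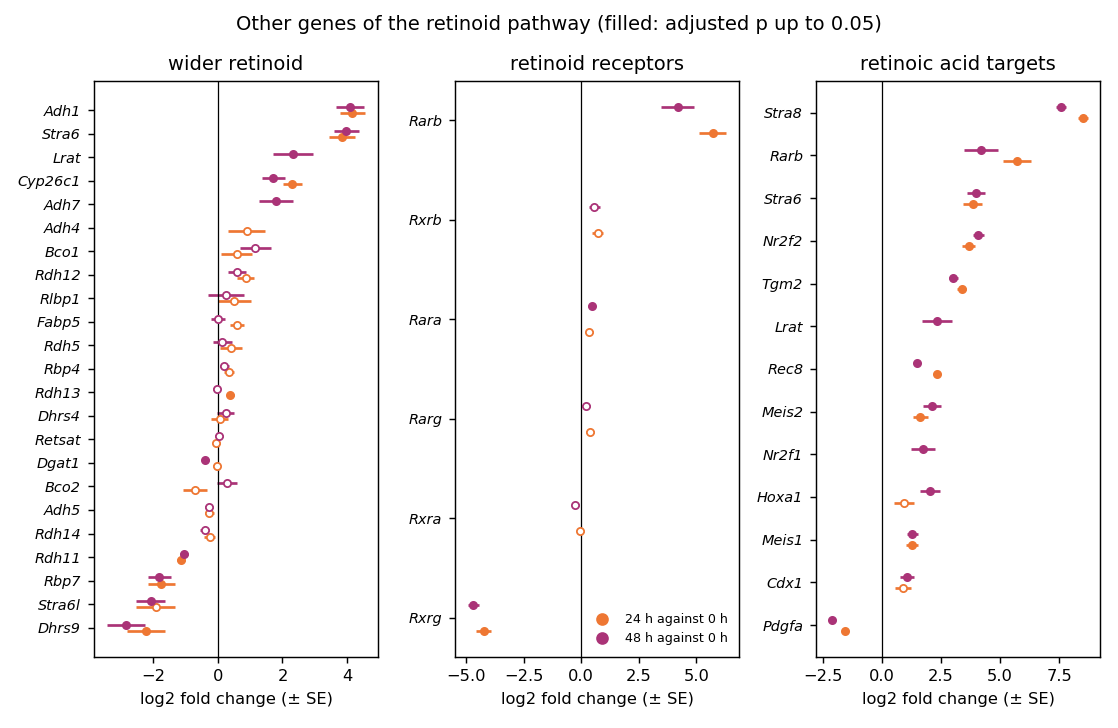
Log2 fold change with standard error (horizontal axes) of tested genes for retinoid handling, retinoid receptors and retinoic acid targets, at 24 h and 48 h against 0 h. Filled points passed an adjusted p of 0.05 in edgeR; most targets lie to the right of 0 at both times, with Pdgfa at -1.55 and -2.14, and Rxrg lies at -4.23 and -4.69.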

How the data were processed

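Poly-A RNA of 9 samples was sequenced by the authors. The submitters' processing notes name fastp, HISAT2, featureCounts and GRCm38; versions, annotation release and strand setting were not given in the sources used here. The deposited values are raw counts per gene, 1 file per sample. Of 46078 identifiers, 45229 were matched to the GENCODE M21 annotation, and the other 849 took 0.101 to 0.121% of the counts of a library.

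Each pair of times was fitted with edgeR 4.0.16 (R 4.3.3, limma 3.58.1) on its 6 libraries, with scaling by the trimmed mean of M-values, the filterByExpr filter and the quasi-likelihood test, and p-values were adjusted over all genes tested. The test was run on simulated data with 1 spread for all libraries, narrower than that of the comparisons with 0 h. That run therefore says little about the calls against 0 h. A gene was called at an adjusted p of up to 0.05. FPKM was computed from the counts and the union of exons. Likeness used log2 CPM with a prior count of 2. BLAST 2.17.0 and the annotation were searched for sequence shared with other genes (at least 75 bases at 97% identity) and for overlapping exons: none was found for the 9 members. Alternatives were DESeq2 1.42.0, its size factors in edgeR, library size alone, 2 other filters, 1 fit over all 9 libraries, a block for the replicate number, offsets for GC content and length, a fold over 1.3 and leaving out each library.

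All 9 members are named; of the other retinoid lists, those that were called in any comparison and whose average reached 5 CPM at some time. The nearest genes were sought for the members with the largest called rise and fall at 24 h. One gene of these lists is counted with them but not reported here by itself. Members and lists were chosen with earlier results of these data known. Sequences are from RefSeq. Total counts of 16825251 to 22201892 mean that 11 counts of Aldh1a1, the smallest value of a member, are 0.686 CPM.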

Additional observations from a re-analysis of the deposited data

How the results depend on the processing

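Of 378 refits of the members' log2 fold changes, 337 kept direction and side of the threshold, 28 lost a call, 4 gained one and 9 turned direction, none of the 9 in a change that had been called. Those 9 were Rdh10 at 48 h against 0 h with library size alone (0.036) and without 48 h replicate 3 (0.11; -0.23 to 0.11 over all libraries left out), Aldh1a2 at 48 h against 0 h without 0 h replicate 1 (-0.0023), Cyp26b1 from 24 h to 48 h with GC and length offsets (0.14) and without 24 h replicate 2 (0.012), 48 h replicate 1 (0.0062) or 48 h replicate 3 (0.0033; -0.18 to 0.012 over all), and Crabp1 from 24 h to 48 h with the offsets (0.15) and without 24 h replicate 3 (0.022; -0.10 to 0.022 over all). The calls of Cyp26a1 in all comparisons, and of Cyp26b1, Aldh1a1 and Aldh1a3 against 0 h, held in every refit. The calls of Aldh1a3 and Aldh1a1 from 24 h to 48 h were each lost on leaving out any 1 of 4 libraries (24 h replicate 1 or 2, 48 h replicate 1 or 3; adjusted p 0.0749 to 0.106 and 0.0822 to 0.141), and that of Dhrs3 at 24 h on leaving out 0 h replicate 2 or any 24 h library (0.0996 to 0.145). The cause was not tested.

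Leaving out 1 library moved the members called from 6 to between 4 and 6 (24 h against 0 h), from 5 to between 4 and 6 (48 h against 0 h) and from 4 to between 2 and 4 (48 h against 24 h), and all genes called to 2607 to 6023, 3471 to 7116 and 1857 to 4356. With all 9 libraries in 1 fit, 1043 genes and 2 members were called from 24 h to 48 h. Deviations of same-numbered libraries correlated from -0.28 to 0.20, and those of differently numbered ones from -0.39 to 0.38. With 3 libraries per group this cannot settle whether the numbers mark shared cultures, which the labels do not say. The main fits did not treat them as pairs. With the replicate number as a block, 2 members were called from 24 h to 48 h, Aldh1a1 (adjusted p = 0.0739) and Aldh1a3 (0.0504) being lost, and Dhrs3 was lost at 24 h (0.0904). Scaling to library size alone shifted the all-gene median by 0.11 at 24 h and at 48 h against 0 h, and the share of calls that were higher from 44.5% to 57.1% and from 41.2% to 52.8%. From 24 h to 48 h this share was 40.4%, 52.5% with the offsets and 27.3% with all 9 libraries.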
